A study of Mus musculus with 90 samples.

Results

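Liver RNA was compared between ZT12 and ZT16 in mice that lack the glucocorticoid receptor (GR) in hepatocytes and were kept on caloric restriction. The members are the 6 libraries whose titles give caloric restriction, GR LKO and ZT12 (n = 3) or ZT16 (n = 3), out of 90 in the series. ZT (zeitgeber time) counts hours from lights on, so that the interval runs over the first 4 h of the dark phase. The study followed mouse liver RNA through 6 time points in both genotypes and on both diets to ask which daily changes depend on GR. Food was given at ZT12, so the comparison spans dark onset and the meal together, and these cannot be told apart.

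All groups were male C57BL/6J mice on chow, entered into the feeding protocol at 12 weeks of age and used at 20 to 21 weeks, after 8 weeks. GR LKO mice carried the genotype GRfl/fl x Alb-Cre, and their WT counterparts carried GRfl/fl without Cre, so both share the floxed *Nr3c1* gene. On caloric restriction (CR) intake was lowered stepwise to 40% less than normal. Control mice ate freely until the last week, in which night-restricted feeding (NRF) limited access to the hours from ZT12 to ZT0. The groups are GR LKO on CR at ZT12 and ZT16 (3 and 3 mice), WT on CR at the same times (3 and 3), and GR LKO on control diet at the same times (4 and 3). Libraries of a group are separate mice, so that each p-value measures the spread between animals. Cre under the albumin promoter acts in hepatocytes, and *Nr3c1* RNA of other liver cells or from exons that remain after deletion cannot be told apart in whole tissue.

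GR is a nuclear receptor that binds glucocorticoids and regulates genes of glucose, lipid and amino acid metabolism in liver. The hormone peaks in the blood of mice around the start of the dark phase. The hepatic clock, built on ARNTL and CLOCK and their repressors, and signals from feeding, such as insulin, amino acids and body temperature, act on many of the same genes.

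Each value is an estimated count of RNA fragments per gene, given here as CPM, counts scaled to library size with TMM factors that correct for composition. The ZT12 GR LKO libraries held 17590672, 19230725 and 16766064 counts and the ZT16 libraries 16815530, 16357083 and 16180253. Replicates 1 and 2 at ZT12 were deeper than all 3 ZT16 libraries, and replicate 3 lay within their range. WT libraries held 16249746, 16712295 and 20788575 counts at ZT12 and 19135928, 14235473 and 17549564 at ZT16. In control diet GR LKO liver the totals ran from 12974408 to 16066590 at ZT12 and from 13029116 to 14595267 at ZT16. Mitochondrially encoded genes took 10.1% to 10.8% of the counts in the 6 libraries. Bounds set by a floor of 3 counts cover counting error only.

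*Nr3c1*, the gene that Cre deletes, stood at 31.0, 32.2 and 30.8 CPM at ZT12 and 23.2, 25.9 and 25.4 CPM at ZT16 in GR LKO liver. In WT liver it stood at 102, 98.0 and 104 CPM at ZT12 and 77.4, 94.4 and 95.3 CPM at ZT16. Every GR LKO library lay below every WT library, as the labels require. Alternatives are other fits and the omission of 1 library at a time. Within GR LKO the remaining signal fell from ZT12 to ZT16 without overlap between the groups (log2 change -0.32 ± 0.08, SE, edgeR adjusted p = 0.0163, 0.00279 to 0.0537 over the alternatives), and the call was lost without replicate 1 at ZT16 (edgeR adjusted p = 0.0537).

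All 7 hepatocyte markers were present in the 6 libraries, with albumin (*Alb*) the most abundant, and summed to 127975, 137918 and 119911 CPM at ZT12 and 125460.0, 102828 and 127489 CPM at ZT16. Of these markers 3 fell and 4 were not called (42.9% called, all genes 37.8%). *Tat*, which is also a GR target, is among the 3 that fell. The 8 Kupffer and myeloid markers summed to 159.6, 130.5 and 198 CPM at ZT12 and 200.4, 176 and 149 CPM at ZT16, led by *Clec4f* or *Lyz2*. With edgeR 0 of 8 were called, 0 had an unadjusted p under 0.05 and DESeq2 called 0. Endothelial markers, led by *Clec4g*, summed to 213, 199 and 222 CPM at ZT12 and 168, 208 and 186 CPM at ZT16. Of these 6, edgeR called 1, lower at ZT16, DESeq2 called 2, and 2 had an unadjusted p under 0.05. Stellate cell markers, led by *Dcn*, gave 222, 198 and 230.4 CPM and 203, 210.4 and 175 CPM, with 0 of 6 called by edgeR, 0 by DESeq2 and 1 with an unadjusted p under 0.05. Cholangiocyte markers, led by *Spp1*, gave 31.5, 32.5 and 32 CPM and 41.9, 34.8 and 37.5 CPM, and 1 of 4 tested rose. Erythrocyte markers, led by *Hbb-bs*, gave 812, 584 and 448 CPM and 464, 460.1 and 423 CPM, highest in replicate 1 at ZT12, with 0 of 5 called by edgeR, 1 by DESeq2 and 1 with an unadjusted p under 0.05. Adipocyte markers gave 8.95, 8.19 and 8.25 CPM and 18.1, 21.8 and 15.5 CPM. The 1 of 2 tested that rose, *Cidec*, is also a lipid droplet gene of hepatocytes, and 4 of the 6 adipocyte markers were too low to test. Lymphocyte and neutrophil markers summed to 2.08 CPM or less in every one of the 6 libraries. Exocrine pancreas markers summed to 0.226 CPM or less there. In bulk tissue, fewer cells of a type and less RNA per cell cannot be told apart.

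From ZT12 to ZT16, 4516 of 11943 genes tested changed in GR LKO liver on CR (37.8%, edgeR adjusted p under 0.05). Of all genes tested, 2395 rose (20.1%) and 2121 fell (17.8%), and 763 of the calls rose and 520 fell more than 2-fold. The median log2 change of all genes was 0.00. Among the gene lists, 17 of 24 heat shock chaperones, 39 of 60 ribosome biogenesis genes, 14 of 20 aminoacyl-tRNA synthetases and 12 of 23 lipogenic genes rose. In the other direction, 15 of 24 genes of insulin signaling and FoxO, 23 of 47 of autophagy and the lysosome, 18 of 38 of drug and haem metabolism and 10 of 21 of gluconeogenesis fell. By single genes, the chaperone *Hsp90aa1* rose 6.37-fold, and *Pck1*, an enzyme of gluconeogenesis, fell by 3.24 on the log2 scale.

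**Figure D1:**
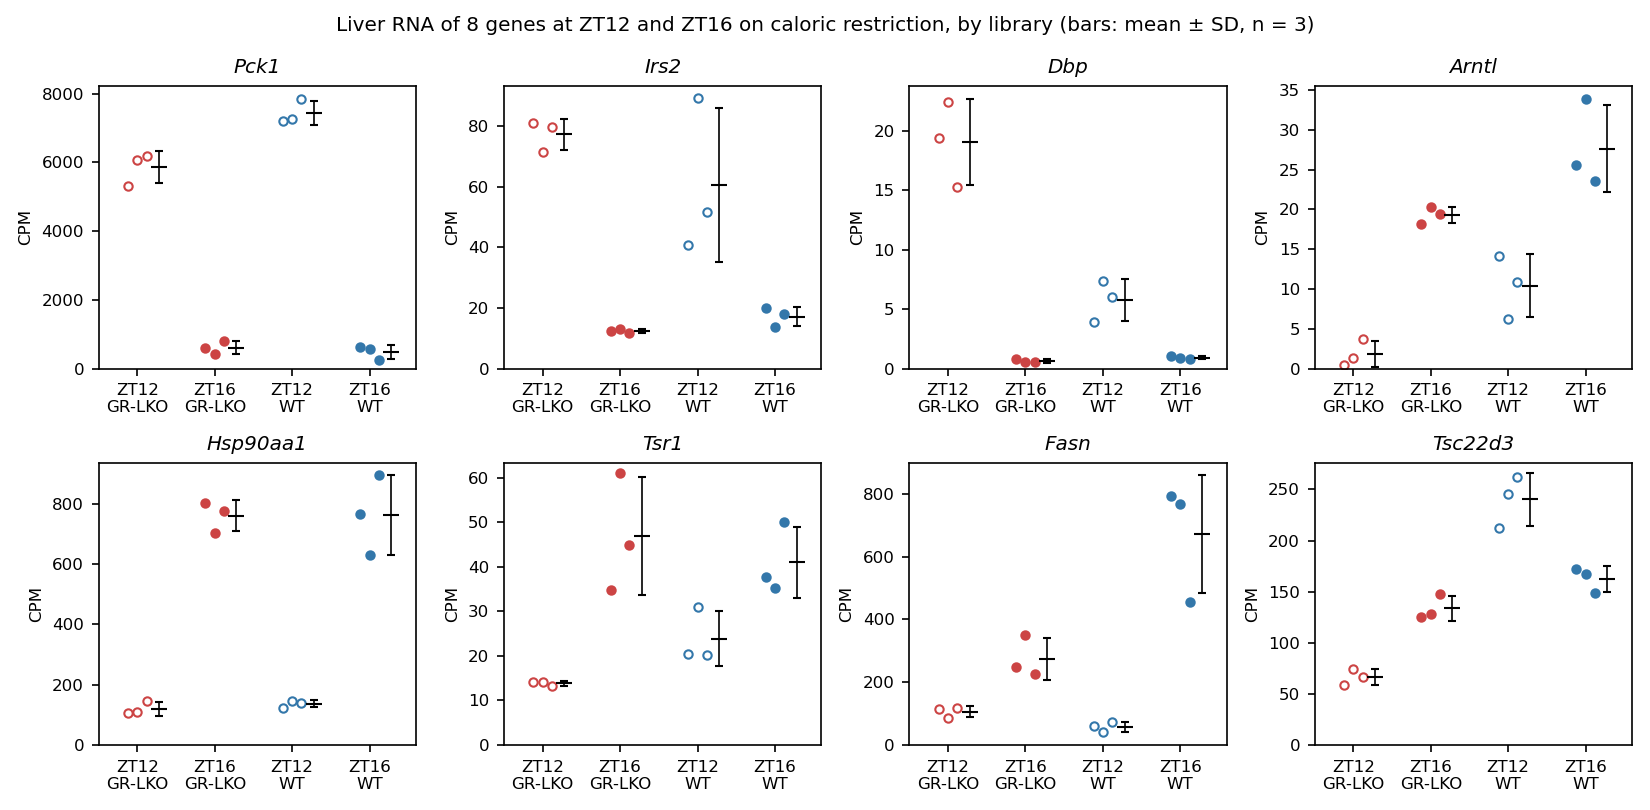
CPM of 8 genes in each liver on caloric restriction (vertical axes, from 0), with open circles for ZT12 and filled circles for ZT16, GR LKO in red and WT in blue, and bars for the mean ± SD (n = 3). In GR LKO liver *Pck1*, *Irs2* and *Dbp* were lower and *Arntl*, *Hsp90aa1*, *Tsr1*, *Fasn* and *Tsc22d3* higher at ZT16, in each case with no overlap between the 3 libraries at either time.

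Among 23 core clock and clock output genes, 4 rose, 11 fell and 8 were not called (median -0.32). Of the 4 that rose, *Arntl*, *Clock* and *Npas2* belong to the activator arm. *Arntl* (BMAL1), the partner of CLOCK, stood at 0.462, 1.36 and 3.69 CPM at ZT12 and 18.2, 20.3 and 19.4 CPM at ZT16. All 3 ZT16 libraries lay above all 3 ZT12 libraries, whose own values spread widely (log2 change 3.42 ± 0.52, SE, edgeR adjusted p = 0.00193). *Clock* itself stood at 5.54, 6.83 and 7.20 CPM at ZT12 and 29.5, 27.6 and 26.1 CPM at ZT16, higher in every ZT16 library (log2 change 2.10 ± 0.13, SE, edgeR adjusted p = 8.18e-05). *Cry1*, a late repressor, rose by 1.08 ± 0.09 (log2, SE, edgeR adjusted p = 0.000175). The 11 that fell include the *Per1*, *Nr1d1* and *Nr1d2* repressors and PAR bZIP output genes. *Dbp*, a PAR bZIP factor driven directly by CLOCK and ARNTL, was at 19.5, 22.5 and 15.3 CPM at ZT12 and 0.809, 0.536 and 0.564 CPM at ZT16, and no ZT16 library came near the ZT12 range (log2 change -4.87 ± 0.24, SE, edgeR adjusted p = 3.47e-05). *Nr1d1*, which encodes the repressor REV-ERBα, stood at 33.3, 40.2 and 39.5 CPM at ZT12 and 2.37, 1.07 and 1.94 CPM at ZT16 (log2 change -4.37 ± 0.23, SE, edgeR adjusted p = 4.35e-05). Its paralog *Nr1d2* stood at 159.8, 136 and 159 CPM at ZT12 and 22.4, 12.3 and 24.3 CPM at ZT16, again without overlap (log2 change -2.93 ± 0.24, SE). Outside the list, *Rgs16*, an inhibitor of G protein signaling, was at 33.1, 23.7 and 22.4 CPM at ZT12 and 0.982, 0.595 and 0.689 CPM at ZT16 and fell by 5.09 on the log2 scale (edgeR adjusted p = 3.47e-05). *Per2* was not called, with 66.6, 87.7 and 76.8 CPM at ZT12 and 72.3, 102 and 83.7 CPM at ZT16. The groups overlapped there.

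*Per1*, a period gene that is also a classical GR target, stood at 39.5, 39.2 and 40.5 CPM at ZT12 and 12.4, 13.2 and 8.52 CPM at ZT16, every ZT16 library lying below every ZT12 library (log2 change -1.79 ± 0.15, SE, edgeR adjusted p = 0.000205). Its promoter is shown because 2 clock-related motifs lie in 1 window of 250 bases before a start of the gene (chr11:69098699-69098948, + strand, RefSeq, GRCm38.p6). Capitals mark an E-box (CACGTG) and a D-box (TTATGNAA), each searched on both strands. Of 32851 promoters, 6.02% hold the E-box and 3.07% the D-box, and a match describes letters only.
Per1 promoter: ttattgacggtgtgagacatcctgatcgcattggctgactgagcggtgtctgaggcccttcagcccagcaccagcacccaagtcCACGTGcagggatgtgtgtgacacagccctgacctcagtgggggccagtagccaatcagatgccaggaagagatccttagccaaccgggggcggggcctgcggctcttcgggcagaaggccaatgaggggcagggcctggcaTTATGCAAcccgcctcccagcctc

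Gluconeogenesis genes and their fasting regulators had 10 of 21 lower, 11 not called and none higher (median -0.31). *Pck1*, the PEP carboxykinase that commits carbon to glucose (ENSMUSG00000027513, chr2:173153048-173159273), stood at 5320.0, 6069 and 6176 CPM at ZT12 and 593, 431 and 809.9 CPM at ZT16. The highest ZT16 library lay far below the lowest ZT12 library (log2 change -3.24 ± 0.23, SE, edgeR adjusted p = 0.000124). *Ppargc1a*, a fasting-induced coactivator, was at 37.7, 28 and 31.4 CPM at ZT12 and 12.0, 7.50 and 13.2 CPM at ZT16, likewise without overlap (log2 change -1.55 ± 0.21, SE, edgeR adjusted p = 0.00122). *Got1*, an aspartate aminotransferase, fell by 1.22 on the log2 scale, and *Klf15*, *Sik1* and *Crtc2* were among the other calls. *G6pc*, the last step of glucose release, overlapped between the times with 827, 548 and 823 CPM at ZT12 and 453, 461 and 695 CPM at ZT16. It was not called (edgeR adjusted p = 0.147, 0.0399 to 0.634 over the alternatives), but without replicate 3 at ZT16 its log2 change of -0.68 passed (edgeR adjusted p = 0.0399).

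Of 22 genes of glycolysis and glucose sensing, 6 rose, 4 fell and 12 were not called (median 0.11, which became negative without replicate 2 at ZT12). *Tpi1*, a triose phosphate isomerase, was at 8.60, 7.12 and 6.77 CPM at ZT12 and 26.6, 23.0 and 32.5 CPM at ZT16 (log2 change 1.88 ± 0.16, SE). The bifunctional regulator *Pfkfb1* rose by 0.97 ± 0.13 (log2, SE, edgeR adjusted p = 0.00113). *Txnip*, a glucose-responsive inhibitor of glucose uptake, stood at 207, 124 and 170.0 CPM at ZT12 and 48.0, 50.1 and 46.4 CPM at ZT16, lower in every ZT16 library (log2 change -1.78 ± 0.18, SE, edgeR adjusted p = 0.000332). *Slc2a2*, the hepatocyte glucose transporter GLUT2, stood at 608, 627 and 615 CPM at ZT12 and 306, 291 and 293 CPM at ZT16, with less spread inside either group than between them (log2 change -1.04 ± 0.08, SE, edgeR adjusted p = 0.000132). *Pklr*, liver pyruvate kinase, was not called (edgeR adjusted p = 0.443).

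In the glycogen list 4 genes rose, 7 fell and 7 were not called out of 18 (median -0.27). *Ppp1r3c*, a subunit that targets protein phosphatase 1 to glycogen (ENSMUSG00000067279, chr19:36731731-36736653), stood at 37.5, 56.4 and 39.1 CPM at ZT12 and 252, 327 and 323 CPM at ZT16. The ZT16 libraries all lay above the ZT12 libraries, by 6.85-fold in the fit (log2 change 2.78 ± 0.19, SE, edgeR adjusted p = 0.000108). *Ppp1r3b*, the main hepatic subunit of the same family, stood at 109.6, 102 and 129 CPM at ZT12 and 473, 384 and 547 CPM at ZT16 (log2 change 2.06 ± 0.15, SE, edgeR adjusted p = 0.000132). *Gys2*, liver glycogen synthase itself, went the other way, at 591, 572 and 432 CPM at ZT12 and 283, 257 and 236 CPM at ZT16 (log2 change -1.02 ± 0.14, SE, edgeR adjusted p = 0.00119). *Pygl*, the phosphorylase that breaks glycogen down, rose by 0.36 ± 0.08 (log2, SE, edgeR adjusted p = 0.0109).

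De novo lipogenesis, the synthesis of fatty acids from acetyl-CoA, had 12 of 23 genes higher, 2 lower and 9 not called (median 0.61). *Fasn*, fatty acid synthase, stood at 114, 85.3 and 119 CPM at ZT12 and 248, 351 and 225 CPM at ZT16. Each ZT16 library lay above each ZT12 library (log2 change 1.39 ± 0.19, SE, edgeR adjusted p = 0.00133). *Srebf1*, the insulin-responsive transcription factor of the pathway, stood at 234, 256 and 212 CPM at ZT12 and 358, 409 and 356 CPM at ZT16 (log2 change 0.69 ± 0.10, SE, edgeR adjusted p = 0.00176), and *Mid1ip1*, an activator of acetyl-CoA carboxylase, rose by 0.71 ± 0.09 (log2, SE). *Insig2*, which retains SREBP in the endoplasmic reticulum, stood at 55.3, 65.5 and 78.7 CPM at ZT12 and 140.1, 195 and 212 CPM at ZT16 (log2 change 1.47 ± 0.18, SE, edgeR adjusted p = 0.000805). *Acaca*, acetyl-CoA carboxylase, overlapped at 224, 162 and 185 CPM at ZT12 and 205, 253 and 218 CPM at ZT16 and was not called (edgeR adjusted p = 0.169). *Elovl3*, a fatty acid elongase, was at 0, 0 and 0.985 CPM at ZT12 and 7.97, 6.25 and 2.51 CPM at ZT16. The rise of 4.12 ± 1.02 (log2, SE, edgeR adjusted p = 0.0159, 0.00405 to 0.114 over the alternatives) was lost with DESeq2 (adjusted p = 0.114), in the edgeR fit over all groups (adjusted p = 0.0996) and without replicate 1 at ZT16 (adjusted p = 0.0535).

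Cholesterol synthesis and uptake genes split: 11 of 28 rose, 4 fell and 13 were not called (median 0.19). *Sqle*, squalene epoxidase, stood at 25.3, 26.7 and 28 CPM at ZT12 and 83.3, 95.9 and 109 CPM at ZT16, higher in every ZT16 library (log2 change 1.87 ± 0.12, SE, edgeR adjusted p = 8.50e-05). In the bile acid list 6 genes rose, 9 fell and 13 were not called out of 28 (median -0.14). *Hsd3b7*, an early enzyme of the pathway, stood at 98.6, 127 and 122 CPM at ZT12 and 221, 274 and 282 CPM at ZT16 (log2 change 1.18 ± 0.13, SE, edgeR adjusted p = 0.000542). *Abcc2*, a canalicular export pump, stood at 1306, 1289.9 and 1348 CPM at ZT12 and 703, 664 and 793 CPM at ZT16 (log2 change -0.85 ± 0.09, SE, edgeR adjusted p = 0.000516). *Cyp7a1*, the rate-limiting enzyme of bile acid synthesis, stood at 197, 87.2 and 146 CPM at ZT12 and 252, 279 and 272 CPM at ZT16 without overlap (log2 change 0.92 ± 0.25, SE, edgeR adjusted p = 0.0240, 0.000598 to 0.175 over the alternatives). That call was lost in the edgeR fit over all groups (adjusted p = 0.175) and without replicate 3 at ZT12 or any 1 of the 3 ZT16 libraries (adjusted p = 0.0678, 0.0501, 0.0649 and 0.0669).

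Mitochondrial fat oxidation and ketogenesis had 2 of 24 genes higher, 5 lower and 17 not called (median -0.10, 29.2% called, all genes 37.8%). *Cpt1a*, the gatekeeper of fatty acid entry into mitochondria, stood at 669.5, 728 and 606 CPM at ZT12 and 208, 329.7 and 299.7 CPM at ZT16, with every ZT16 library lower (log2 change -1.24 ± 0.17, SE, edgeR adjusted p = 0.00118). *Cpt2*, the inner membrane partner, went up, at 103, 117 and 144 CPM at ZT12 and 208, 208 and 223 CPM at ZT16 (log2 change 0.83 ± 0.13, SE, edgeR adjusted p = 0.00202). Among PPARα targets and peroxisomal genes 1 of 33 rose, 10 fell and 22 were not called (median -0.30, 33.3% called, all genes 37.8%). *Ppara*, the receptor itself, stood at 213, 227 and 205 CPM at ZT12 and 79.8, 98.4 and 104 CPM at ZT16 (log2 change -1.18 ± 0.11, SE, edgeR adjusted p = 0.000299). *Angptl4*, a lipoprotein lipase inhibitor, stood at 72.3, 68.5 and 88.7 CPM at ZT12 and 40.4, 43.7 and 35.1 CPM at ZT16 (log2 change -0.93 ± 0.13, SE, edgeR adjusted p = 0.00133). *Acot4*, a peroxisomal thioesterase, fell by 0.93 on the log2 scale. *Cyp4a14*, a fatty acid hydroxylase, was not called (edgeR adjusted p = 0.0698, 0.0120 to 0.189 over the alternatives) but passed with DESeq2 (adjusted p = 0.0196) and without replicate 3 at ZT16 (edgeR adjusted p = 0.0120). It also passed with a block on replicate number (edgeR adjusted p = 0.0259).

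Triglyceride synthesis and lipid droplet genes had 7 of 24 higher, 4 lower and 13 not called (median 0.15). *Lpin2*, a phosphatidate phosphatase, stood at 708, 662 and 846 CPM at ZT12 and 164, 95.5 and 135 CPM at ZT16, with no overlap (log2 change -2.47 ± 0.20, SE, edgeR adjusted p = 0.000180). *Pnpla2*, the lipase ATGL, was lower at 74.6, 83.7 and 77.6 CPM at ZT12 and 28.7, 44 and 29.1 CPM at ZT16 (log2 change -1.20 ± 0.17, SE, edgeR adjusted p = 0.00138), while its inhibitor *G0s2* was higher at 48.9, 71.8 and 75.1 CPM at ZT12 and 218, 215 and 151 CPM at ZT16 (log2 change 1.60 ± 0.20, SE, edgeR adjusted p = 0.000876). *Plin5*, a droplet coat protein, stood at 19.7, 17.5 and 27.9 CPM at ZT12 and 88.2, 105 and 63.8 CPM at ZT16 (log2 change 2.0 ± 0.23, SE, edgeR adjusted p = 0.000581). *Cidec*, which drives droplet fusion, stood at 1.85, 2.43 and 3.26 CPM at ZT12 and 13.0, 13.7 and 8.39 CPM at ZT16 (log2 change 2.24 ± 0.27, SE, edgeR adjusted p = 0.000774). *Lpin1*, a lipin that GR and fasting are known to induce, varied widely, at 52.1, 16.4 and 41.9 CPM at ZT12 and 15.8, 1.25 and 3.44 CPM at ZT16. The groups did not overlap, yet the call (edgeR adjusted p = 0.0419, 0.00500 to 0.124 over the alternatives) was lost with DESeq2 (adjusted p = 0.0596), in the edgeR fit over all groups (adjusted p = 0.0863), and without replicate 1 or 3 at ZT12 or replicate 2 or 3 at ZT16 (adjusted p = 0.120, 0.101, 0.0756 and 0.124).

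Amino acid catabolism had 8 of 40 genes higher, 5 lower and 27 not called (32.5% called, all genes 37.8%). Its median of 0.07 turned negative without replicate 1 at ZT12 or replicate 3 at ZT16. *Bhmt*, which remethylates homocysteine with betaine, stood at 366, 809 and 629.7 CPM at ZT12 and 2189, 3177 and 4319 CPM at ZT16. The lowest ZT16 library lay above the highest ZT12 library (log2 change 2.44 ± 0.33, SE, edgeR adjusted p = 0.00122). *Sds*, serine dehydratase, went down, at 175, 264 and 168 CPM at ZT12 and 52.2, 35.6 and 48.0 CPM at ZT16 (log2 change -2.14 ± 0.21, SE, edgeR adjusted p = 0.000352). *Tat*, tyrosine aminotransferase and a textbook GR target, stood at 2391, 3336 and 3082 CPM at ZT12 and 1247, 1353 and 1659.5 CPM at ZT16 (log2 change -1.03 ± 0.16, SE, edgeR adjusted p = 0.00188). Of 8 urea cycle genes 2 rose, 2 fell and 4 were not called, with a median of 0.05 that was negative under the same omissions. *Cps1*, the entry enzyme, was not called with 5050.5, 4420.0 and 4262 CPM at ZT12 and 4337, 4675 and 6446 CPM at ZT16. Amino acid stress and serine synthesis genes had 1 of 17 higher, 4 lower and 12 not called (median -0.27, 29.4% called, all genes 37.8%). *Atf5*, a stress transcription factor, rose by 1.39 ± 0.24 (log2, SE, edgeR adjusted p = 0.00352). *Sesn2*, a leucine sensor that restrains mTORC1, stood at 14.8, 18.9 and 16.1 CPM at ZT12 and 3.29, 2.74 and 4.32 CPM at ZT16 (log2 change -2.25 ± 0.19, SE, edgeR adjusted p = 0.000201). *Asns*, asparagine synthetase, ranged within groups, at 14.5, 40.4 and 8.80 CPM at ZT12 and 8.15, 83.8 and 73.0 CPM at ZT16. It was not called (edgeR adjusted p = 0.215, 0.0394 to 0.466 over the alternatives), but passed without replicate 1 at ZT16 (adjusted p = 0.0394).

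Of 24 heat shock chaperone genes 17 rose, 3 fell and 4 were not called (median 0.98). *Hsp90aa1*, the inducible cytosolic HSP90 (ENSMUSG00000021270, chr12:110690605-110702728), stood at 105, 110.5 and 147 CPM at ZT12 and 802, 704 and 777 CPM at ZT16. The ZT16 libraries all lay above the ZT12 libraries, by 6.37-fold in the fit (log2 change 2.67 ± 0.15, SE, edgeR adjusted p = 4.56e-05). *Hspa8*, the constitutive HSC70, stood at 1143, 1278 and 1652 CPM at ZT12 and 2587, 3514 and 2286 CPM at ZT16 (log2 change 1.06 ± 0.19, SE, edgeR adjusted p = 0.00438). *Hspa4l*, an HSP110 family member, was at 6.12, 6.33 and 9.91 CPM at ZT12 and 35.8, 37.4 and 43.3 CPM at ZT16, all ZT16 libraries being higher (log2 change 2.40 ± 0.19, SE, edgeR adjusted p = 0.000167). *Hsph1*, a nucleotide exchange factor for HSP70, stood at 13.8, 11.4 and 15.3 CPM at ZT12 and 40.9, 40.5 and 40.0 CPM at ZT16 (log2 change 1.60 ± 0.12, SE, edgeR adjusted p = 0.000129, 1.37e-23 to 0.0592 over the alternatives), a call that the edgeR fit over all groups lost (adjusted p = 0.0592). At ZT8 *Hsph1* was listed at 0 CPM in every GR LKO library on CR, and at ZT0 it ranged from 0 to 7.01 CPM there. Whether such a 0 stands for reads assigned elsewhere was not tested. *Dnajb1*, an HSP40 cochaperone, was among the 3 that fell, by 0.75 on the log2 scale (edgeR adjusted p = 0.00460). *Hspa1b*, which shares near-identical sequence with *Hspa1a*, had means of 18.8 ± 9.25 CPM at ZT12 and 10.7 ± 5.26 CPM at ZT16 (SD, n = 3). It was not called (edgeR adjusted p = 0.202, 0.0447 to 0.473 over the alternatives), but passed as a fall without replicate 1 at ZT12 (log2 change -1.16, edgeR adjusted p = 0.0447). Both cold-inducible RNA-binding protein genes fell: *Cirbp* stood at 19.4, 18.5 and 14.1 CPM at ZT12 and 10.7, 8.63 and 8.71 CPM at ZT16 (log2 change -0.87 ± 0.16, SE, edgeR adjusted p = 0.00482), and *Rbm3* fell by 0.53 on the log2 scale (edgeR adjusted p = 0.00199).

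*Hspb1*, the small heat shock protein HSP25, stood at 9.70, 10.9 and 22.0 CPM at ZT12 and 57.8, 55.0 and 26.1 CPM at ZT16. All 3 ZT16 values exceeded the ZT12 values, but replicate 3 at each time lay close to the other group (log2 change 1.73 ± 0.38, SE, edgeR adjusted p = 0.0102). Its promoter is shown because the 250 bases before its start (chr5:135887669-135887918, + strand, RefSeq, GRCm38.p6) hold 2 copies of the heat shock element core GAANNTTC, marked in capitals, which is found in 6.69% of 32851 promoters. *Hspa1b* holds 1 copy, *Hspa4l*, *Hsph1* and *Dnajb1* none, and *Hsp90aa1* and *Hspa8* had no promoter in the file searched. Matches on either strand were searched, and a match is a description of letters, not of binding.
Hspb1 promoter: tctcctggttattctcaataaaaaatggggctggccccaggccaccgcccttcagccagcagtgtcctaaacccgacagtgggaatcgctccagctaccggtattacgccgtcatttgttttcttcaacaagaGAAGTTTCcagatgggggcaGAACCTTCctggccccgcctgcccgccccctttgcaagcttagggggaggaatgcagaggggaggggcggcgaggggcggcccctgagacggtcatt

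In the unfolded protein response 17 of 28 genes rose, 2 fell and 9 were not called (median 0.42). *Sdf2l1*, an endoplasmic reticulum chaperone factor, stood at 2.77, 2.60 and 3.14 CPM at ZT12 and 25.9, 28.6 and 15.6 CPM at ZT16. No ZT12 library reached the ZT16 range (log2 change 3.06 ± 0.25, SE, edgeR adjusted p = 0.000169). *Creld2* stood at 10.2, 8.25 and 11.9 CPM at ZT12 and 67.6, 96.2 and 43.7 CPM at ZT16 (log2 change 2.79 ± 0.29, SE, edgeR adjusted p = 0.000405), and *Manf*, a secreted factor of the same compartment, at 24.8, 20.6 and 28.5 CPM at ZT12 and 84.6, 135 and 87.9 CPM at ZT16 (log2 change 2.07 ± 0.21, SE, edgeR adjusted p = 0.000349). *Hspa5*, the chaperone BiP, stood at 329, 288 and 371 CPM at ZT12 and 852, 1368 and 834 CPM at ZT16 (log2 change 1.64 ± 0.20, SE, edgeR adjusted p = 0.000833). *Xbp1* rose by 0.69 ± 0.11 (log2, SE). *Herpud1*, part of the degradation machinery of the same compartment, went down, at 333, 343 and 370.0 CPM at ZT12 and 114, 153 and 125 CPM at ZT16 (log2 change -1.40 ± 0.12, SE, edgeR adjusted p = 0.000199).

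Aminoacyl-tRNA synthetases, which charge tRNAs, had 14 of 20 genes higher, 6 not called and none lower (median 0.49). *Farsb* stood at 17.4, 13.7 and 15.8 CPM at ZT12 and 33.0, 38.6 and 28.2 CPM at ZT16 (log2 change 1.10 ± 0.14, SE, edgeR adjusted p = 0.000957), *Wars* rose by 1.04 ± 0.13 and *Nars* by 1.01 ± 0.17 (log2, SE). Ribosome biogenesis had 39 of 60 genes higher, 2 lower and 19 not called (median 0.59). *Tsr1*, a maturation factor of the small subunit, stood at 14.1, 14.2 and 13.2 CPM at ZT12 and 34.7, 61.0 and 44.9 CPM at ZT16. Every ZT16 library lay well above the ZT12 group (log2 change 1.77 ± 0.19, SE, edgeR adjusted p = 0.000481). *Rrp12*, a pre-ribosome export factor, stood at 4.50, 5.93 and 4.74 CPM at ZT12 and 13.1, 21.2 and 12.7 CPM at ZT16 (log2 change 1.64 ± 0.23, SE, edgeR adjusted p = 0.00147). *Heatr1*, needed for rRNA transcription, was at 12.2, 5.65 and 8.0 CPM at ZT12 and 18.1, 34.6 and 24.3 CPM at ZT16 (log2 change 1.59 ± 0.32, SE, edgeR adjusted p = 0.00636). *Nop56*, a box C/D snoRNP protein, rose by 0.92 ± 0.19, and *Polr1b*, a subunit of RNA polymerase I, by 0.63 ± 0.14 (log2, SE). *Npm1*, nucleophosmin, fell by 0.29 on the log2 scale (edgeR adjusted p = 0.0327, 0.00671 to 0.101 over the alternatives), a call lost without replicate 1 or 3 at ZT12 (adjusted p = 0.0930 and 0.101), without replicate 1 or 3 at ZT16 (adjusted p = 0.0758 and 0.0829) and in edgeR on all genes with at least 1 count (adjusted p = 0.0502). The call was also lost with a block on replicate number (edgeR adjusted p = 0.0627).

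Of 77 cytosolic ribosomal protein genes 1 rose, 5 fell and 71 were not called (median -0.11, 7.79% called, all genes 37.8%). *Rpl22* was at 112, 113 and 109 CPM at ZT12 and 71.6, 65.5 and 62.8 CPM at ZT16 (log2 change -0.73 ± 0.09, SE, edgeR adjusted p = 0.000671), and *Rps2* was the 1 that rose, at 422, 450.3 and 471 CPM at ZT12 and 549, 635 and 544 CPM at ZT16. Its call (edgeR adjusted p = 0.0164, 0.000781 to 0.0585 over the alternatives) was lost without replicate 1 at ZT12 (adjusted p = 0.0585) or replicate 2 at ZT16 (adjusted p = 0.0566). Its pseudogene *Rps2-ps10* moved the other way (156, 334 and 154 CPM at ZT12 and 3.52, 2.86 and 3.88 CPM at ZT16), so a shift of reads between them cannot be told apart from a rise of *Rps2*. Nuclear-encoded oxidative phosphorylation genes gave 3 of 76 higher, 8 lower and 65 not called (median -0.10, 14.5% called, all genes 37.8%). *Ndufs4*, a complex I subunit, was higher by 0.87 ± 0.15 (log2, SE). In the proteasome 15 of 41 rose, 1 fell and 25 were not called (median 0.16, 39.0% called, all genes 37.8%). *Psmd14*, the deubiquitinase of the lid, stood at 21.1, 24.3 and 22.5 CPM at ZT12 and 49.9, 43.2 and 57.1 CPM at ZT16 (log2 change 1.16 ± 0.12, SE, edgeR adjusted p = 0.000387), and the assembly chaperone *Psmd9* was the 1 that fell, by 0.86 on the log2 scale.

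Autophagy and lysosome genes had 23 of 47 lower, 24 not called and none higher (median -0.20). *Depp1*, a FoxO target linked to autophagy, stood at 63.0, 98.4 and 69.1 CPM at ZT12 and 2.48, 3.75 and 8.02 CPM at ZT16. The groups were far apart (log2 change -4.01 ± 0.38, SE, edgeR adjusted p = 0.000285). *Ulk1*, the kinase that starts autophagy, stood at 86.0, 73.1 and 84.3 CPM at ZT12 and 25.9, 18.8 and 22.3 CPM at ZT16 (log2 change -1.84 ± 0.14, SE, edgeR adjusted p = 0.000131), and *Gabarapl1*, an ATG8 family member, at 438, 476 and 508 CPM at ZT12 and 159.9, 193 and 168 CPM at ZT16 (log2 change -1.43 ± 0.10, SE, edgeR adjusted p = 0.000128). In insulin signaling and FoxO 3 of 24 genes rose, 15 fell and 6 were not called (median -0.54). *Irs2*, the insulin receptor substrate that FoxO induces in fasting, stood at 80.9, 71.6 and 79.7 CPM at ZT12 and 12.4, 13.2 and 11.7 CPM at ZT16. Each ZT16 library was below each ZT12 library, with little spread within groups (log2 change -2.62 ± 0.10, SE, edgeR adjusted p = 2.05e-05). *Igfbp1*, an insulin-repressed secreted protein, stood at 39.8, 21.0 and 24.8 CPM at ZT12 and 1.62, 1.79 and 2.94 CPM at ZT16 (log2 change -3.74 ± 0.32, SE, edgeR adjusted p = 0.000197). *Foxo1* stood at 54.9, 63.2 and 70.6 CPM at ZT12 and 34.7, 31.0 and 34.9 CPM at ZT16 (log2 change -0.89 ± 0.11, SE, edgeR adjusted p = 0.000881). *Irs1* fell by 0.63 on the log2 scale (edgeR adjusted p = 0.0222, 0.00314 to 0.0750 over the alternatives), a call lost without replicate 2 or 3 at ZT12 or replicate 1 or 2 at ZT16 (adjusted p = 0.0600, 0.0750, 0.0712 and 0.0667).

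Of 13 mTORC1 brakes and 4E-binding proteins, 1 rose, 8 fell and 4 were not called (median -0.49). *Tsc1*, which restrains mTORC1, was at 50.1, 55.7 and 55.2 CPM at ZT12 and 33.2, 26.1 and 30.6 CPM at ZT16 (log2 change -0.82 ± 0.11, SE, edgeR adjusted p = 0.00107). The 1 that rose was *Castor2*, an arginine sensor paralog, at 2.08, 1.30 and 1.42 CPM at ZT12 and 10.5, 7.50 and 7.20 CPM at ZT16 (log2 change 2.41 ± 0.26, SE, edgeR adjusted p = 0.000474). *Eif4ebp1*, a translation repressor, fell by 1.06 on the log2 scale (edgeR adjusted p = 0.0247, 0.000279 to 0.0808 over the alternatives), a call lost without replicate 2 or 3 at ZT12 or replicate 1 or 3 at ZT16 (adjusted p = 0.0752, 0.0591, 0.0735 and 0.0808).

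Genes known as classical GR targets changed in liver without hepatocyte GR: 2 of 23 rose, 14 fell and 7 were not called (median -0.77). In WT 19 of 24 fell and 0 rose (median -1.66). The list overlaps others, since *Pck1*, *Tat*, *Per1*, *Igfbp1*, *Angptl4* and *Lpin1* also belong to it. *Fkbp5*, a cochaperone that limits GR activity, stood at 57.4, 49.2 and 40.7 CPM at ZT12 and 20.6, 28.9 and 23.2 CPM at ZT16, with every ZT16 library lower (log2 change -1.01 ± 0.16, SE, edgeR adjusted p = 0.00252). The 2 that rose were *Tsc22d3* and *Cdkn1a*. *Tsc22d3* (GILZ), a mediator of glucocorticoid action, stood at 59.1, 74.5 and 66.6 CPM at ZT12 and 125, 128 and 148 CPM at ZT16 (log2 change 1.02 ± 0.11, SE, edgeR adjusted p = 0.000540). *Cdkn1a*, the cell cycle inhibitor p21, stood at 1.85, 2.09 and 2.28 CPM at ZT12 and 11.8, 13.0 and 4.95 CPM at ZT16 (log2 change 2.27 ± 0.36, SE, edgeR adjusted p = 0.00246).

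In the growth arrest list 3 of 17 genes rose, 6 fell and 8 were not called (median -0.33, which became positive at a minimum count of 50 and without replicate 3 at ZT16). *Trp53inp1*, a stress gene of the p53 pathway, stood at 70.8, 61.7 and 84.1 CPM at ZT12 and 34.7, 24.7 and 35.1 CPM at ZT16 (log2 change -1.18 ± 0.17, SE, edgeR adjusted p = 0.00147). *Ccng2* fell by 0.75 on the log2 scale (edgeR adjusted p = 0.0175, 8.67e-05 to 0.0598 over the alternatives), a call lost without replicate 3 at ZT12 or at ZT16 (adjusted p = 0.0598 and 0.0537). In cell cycle and DNA replication 3 of 22 rose, 5 fell and 14 were not called (36.4% called, all genes 37.8%). The median was -0.05, but positive at a minimum count of 50. *Cdk2* stood at 15.2, 9.71 and 11.5 CPM at ZT12 and 5.55, 2.80 and 5.14 CPM at ZT16 (log2 change -1.42 ± 0.28, SE, edgeR adjusted p = 0.00645). *Ccnd1*, cyclin D1, stood at 21.2, 29.5 and 23.6 CPM at ZT12 and 57.4, 35.5 and 38.5 CPM at ZT16, and its rise (edgeR adjusted p = 0.0147, 0.000879 to 0.148 over the alternatives) was lost in the fit over all groups (adjusted p = 0.148) and without replicate 1 or 3 at ZT12 (adjusted p = 0.0535 and 0.0542). Of 24 immediate early genes 1 rose, 6 fell and 17 were not called (median -0.41, 29.2% called, all genes 37.8%). *Junb*, an AP-1 subunit, stood at 6.18, 10.6 and 9.42 CPM at ZT12 and 2.20, 1.84 and 1.19 CPM at ZT16 (log2 change -2.30 ± 0.30, SE, edgeR adjusted p = 0.000957), and *Nr4a1*, an orphan nuclear receptor, at 7.27, 10.2 and 17.1 CPM at ZT12 and 0.867, 0 and 1.63 CPM at ZT16 (log2 change -3.77 ± 0.75, SE, edgeR adjusted p = 0.00630). *Fos*, *Egr1* and *Myc* were not called, with overlapping groups.

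Of 13 growth hormone and IGF1 genes 2 rose, 5 fell and 6 were not called (median -0.51). *Cux2*, a female-biased liver factor, stood at 34.7, 51.8 and 21.4 CPM at ZT12 and 4.28, 5.71 and 5.39 CPM at ZT16 (log2 change -2.80 ± 0.32, SE, edgeR adjusted p = 0.000575), and *Igfals*, which carries IGF1 in blood, rose by 1.07 ± 0.20 (log2, SE). *Igf1* was not called. *Socs2*, a feedback inhibitor, fell by 1.20 on the log2 scale (edgeR adjusted p = 0.0151, 0.000425 to 0.0660 over the alternatives), a call lost in the fit over all groups (adjusted p = 0.0660) and without replicate 3 at ZT16 (adjusted p = 0.0537). Acute phase genes gave 4 of 29 higher, 5 lower and 20 not called (median 0.12, 31.0% called, all genes 37.8%). *Orm3*, an orosomucoid, stood at 5.60, 10.8 and 9.54 CPM at ZT12 and 19.5, 30.9 and 21.5 CPM at ZT16 (log2 change 1.49 ± 0.26, SE, edgeR adjusted p = 0.00381), and *Il6ra*, the interleukin 6 receptor, fell by 1.03 on the log2 scale.

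Drug and haem metabolism had 18 of 38 genes lower, 20 not called and none higher (median -0.41). *Por*, the electron donor of all microsomal P450 enzymes, stood at 558, 684 and 588 CPM at ZT12 and 197, 219 and 189 CPM at ZT16. All ZT16 libraries lay below the ZT12 range (log2 change -1.58 ± 0.11, SE, edgeR adjusted p = 0.000121). *Cyp2a5* was at 3944, 4081 and 3522 CPM at ZT12 and 1551, 1231 and 1580.1 CPM at ZT16 (log2 change -1.39 ± 0.12, SE, edgeR adjusted p = 0.000235), a value that is uncertain because its paralogs share sequence. *Cyp1a2* fell by 0.93 on the log2 scale. *Alas1*, the first enzyme of haem synthesis, fell by 0.85 (edgeR adjusted p = 0.0267, 0.000505 to 0.0850 over the alternatives), a call lost in the fit over all groups (adjusted p = 0.0825) and without replicate 1 or 2 at ZT12 or replicate 2 or 3 at ZT16 (adjusted p = 0.0850, 0.0578, 0.0809 and 0.0830). Among hepatokines and the leptin receptor 5 of 20 rose, 6 fell and 9 were not called (median -0.26). *Angptl8*, a feeding-induced inhibitor of lipoprotein lipase, stood at 17.0, 28 and 31.1 CPM at ZT12 and 163, 164 and 140.1 CPM at ZT16 (log2 change 2.64 ± 0.21, SE, edgeR adjusted p = 0.000169). *Tsku*, tsukushi, stood at 14.6, 11.2 and 19.6 CPM at ZT12 and 71.4, 61.7 and 57.4 CPM at ZT16 (log2 change 2.09 ± 0.20, SE, edgeR adjusted p = 0.000278), and *Inhba*, an activin subunit, rose by 1.35 ± 0.15 (log2, SE). *Lepr* was not called, and *Fgf21* was too low to test, at 0.520, 0.565 and 2.09 CPM at ZT12 and 0.116, 0.179 and 0.125 CPM at ZT16.

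**Figure D2:**
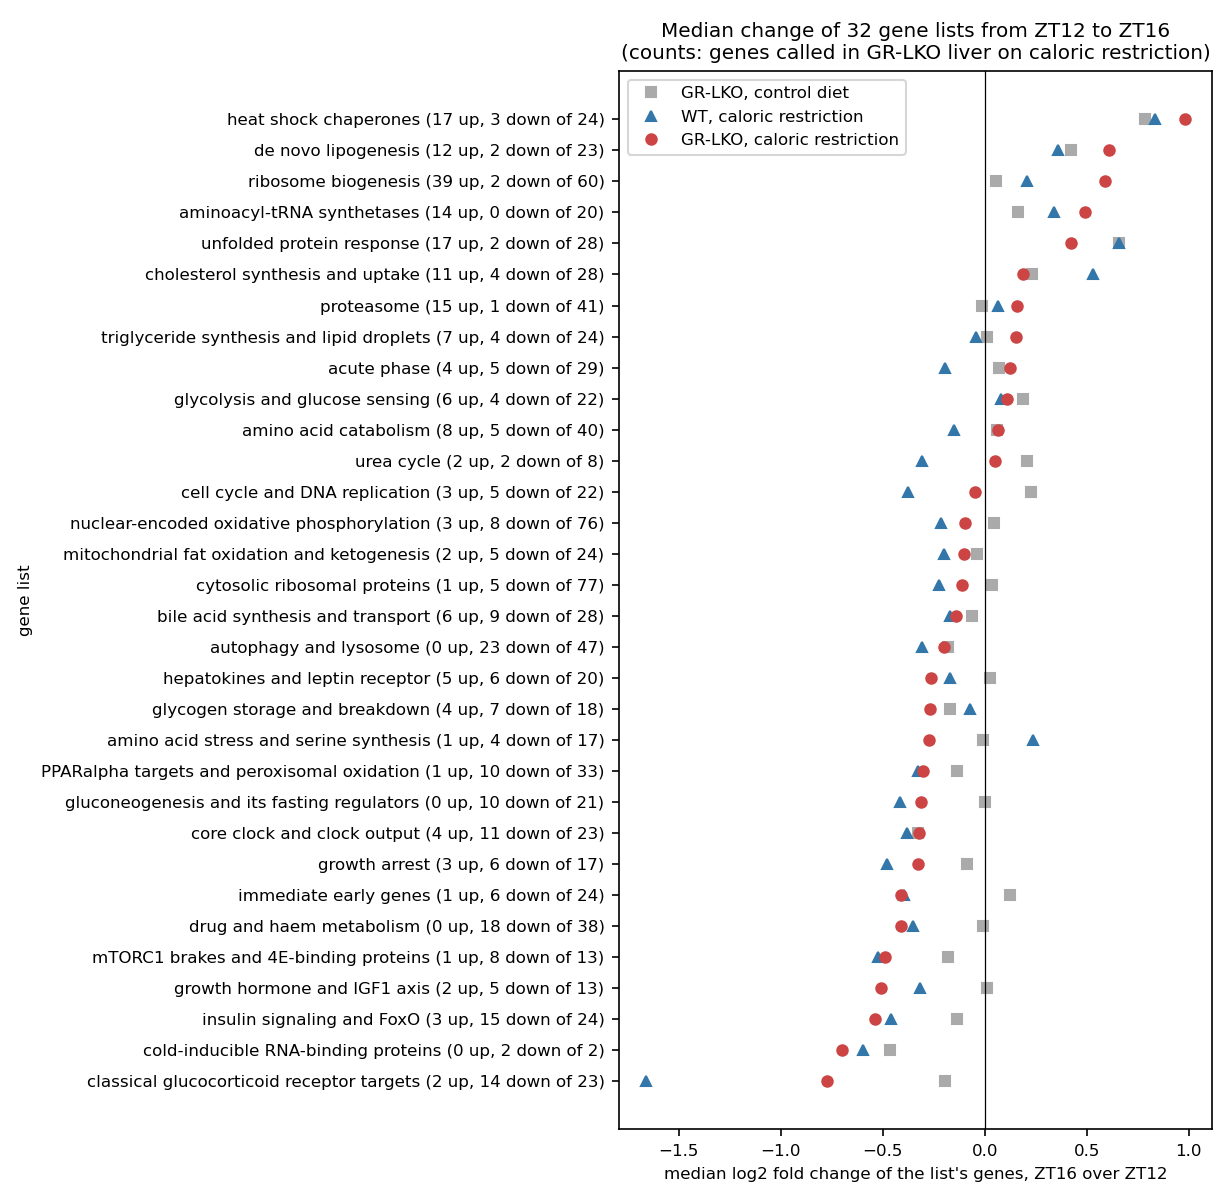
Median log2 change from ZT12 to ZT16 (horizontal axis) of 32 gene lists (vertical axis), in GR LKO liver on caloric restriction (circles), WT liver on caloric restriction (triangles) and GR LKO liver on control diet (squares), with the counts called in GR LKO liver on caloric restriction. Heat shock chaperones (0.98) lay highest and classical GR targets (-0.77) lowest for GR LKO on caloric restriction. The medians of glycolysis, amino acid catabolism, the urea cycle, growth arrest and the cell cycle changed sign under at least 1 alternative.

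Some of the largest changes were in genes listed at 0 in a whole group. In all, 28 called genes had 3 counts or fewer in each library of 1 group, 19 at ZT12 and 9 at ZT16, and 11 of them were at 0 in every library of that group. *Gfer*, a sulfhydryl oxidase of the mitochondrial intermembrane space, was listed at 0, 0 and 0 CPM at ZT12 and 23.9, 25.9 and 22.2 CPM at ZT16, at least 137-fold higher at ZT16 against a floor of 3 counts per library. *Akap8l* was listed at 0, 0 and 0 CPM at ZT12 and 8.55, 6.43 and 9.52 CPM at ZT16, at least 46.5-fold higher, and *Bcat2*, a branched-chain aminotransferase, at 0, 0 and 0 CPM at ZT12 and 5.43, 4.82 and 6.20 CPM at ZT16, at least 31.2-fold higher. *Ddx46*, an RNA helicase of the spliceosome, was listed at 45.4, 43.4 and 37 CPM at ZT12 and 0, 0 and 0 CPM at ZT16, at least 233-fold lower. *Hook2*, a microtubule adaptor, was listed at 23.8, 31.2 and 26.6 CPM at ZT12 and 0, 0 and 0 CPM at ZT16, at least 151-fold lower. Of the 36 libraries on CR, 22 were at or under the floor for *Akap8l*, 15 for *Bcat2*, 8 for *Gfer*, 6 for *Hook2* and 4 for *Ddx46*, also within other groups of replicates: in WT at ZT12 *Ddx46* ranged from 0 to 49.7 CPM and *Gfer* from 0 to 14.5 CPM, and in GR LKO at ZT20 *Akap8l* from 0 to 11.5 CPM. For these 5 genes, whether a 0 stands for absent RNA or for reads assigned to a near-identical transcript or another annotation entry was not tested, and each bound holds only for the counts as deposited. *Slc34a2*, a phosphate transporter, had values of 0, 0 and 0.185 CPM at ZT12 and 7.80, 21.4 and 6.83 CPM at ZT16, with 3 counts or fewer in each ZT12 library.

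Further genes were among the most changed. *A1bg* stood at 4.45, 24.5 and 6.40 CPM at ZT12 and 92.7, 193 and 221 CPM at ZT16 (log2 change 3.85 ± 0.64, SE, edgeR adjusted p = 0.00295), *Atp2b2*, a plasma membrane calcium pump, at 0.693, 0.226 and 0.246 CPM at ZT12 and 11.2, 5.24 and 4.57 CPM at ZT16 (log2 change 4.16 ± 0.54, SE, edgeR adjusted p = 0.000958), and *Yif1a* rose by 3.70 ± 0.71 (log2, SE). *Ip6k2*, an inositol hexakisphosphate kinase, stood at 14.3, 6.16 and 15.0 CPM at ZT12 and 0.578, 1.43 and 0 CPM at ZT16 (log2 change -4.10 ± 0.75, SE, edgeR adjusted p = 0.00442). The major urinary protein genes *Mup15* (1.27, 3.22 and 4.80 CPM at ZT12 and 25.0, 69.9 and 21.2 CPM at ZT16) and *Mup17* (2.02, 3.33 and 2.77 CPM at ZT12 and 27.4, 62.7 and 11.3 CPM at ZT16) rose with wide spread at ZT16, and reads of this near-identical family may be split between members. The pseudogenes *Rps2-ps10* (log2 -5.95 ± 0.38, SE) and *Atp6v0c-ps2* (7.62, 19.4 and 10.5 CPM at ZT12 and 0, 0 and 0 CPM at ZT16) fell and share sequence with their parent genes, so that the values of pseudogene and parent are both uncertain. *Gm4737* stood at 1824, 2608 and 1.35 CPM at ZT12 and 0, 0 and 0.376 CPM at ZT16. Replicate 3 at ZT12 lay near the ZT16 libraries, and the call (edgeR adjusted p = 0.00767, 1.18e-06 to 0.0516 over the alternatives) was lost without replicate 3 at ZT16 (adjusted p = 0.0516). Of the 156 genes examined one by one, 62 overlap a gene on the other strand, among them *Arntl*, *Dbp*, *Nr1d1*, *Irs2*, *Tsr1* and *Depp1*, and their counts are uncertain because the sample labels name the unstranded TruSeq RNA kit v2, the paper names guides of a stranded kit and of a TruSeq RNA kit, and no source used here states whether counting used strand.

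*mt-Nd3*, a mitochondrially encoded complex I subunit, stood at 839.6, 879.8 and 888 CPM at ZT12 and 207, 242 and 158 CPM at ZT16 in GR LKO liver, with every ZT16 library lower (log2 change -2.09 ± 0.15, SE, edgeR adjusted p = 0.000129). In WT liver it stood at 1104, 1237 and 1281 CPM at ZT12 and 1057, 1087 and 1259 CPM at ZT16, with overlapping groups (log2 change -0.07 ± 0.10, SE, edgeR adjusted p = 0.601), and the genotype by time interaction was -2.02 ± 0.19, SE, edgeR adjusted p = 0.000381. At ZT20 in GR LKO liver the mean was 393 ± 337 CPM (SD, n = 3).

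Through the day on CR, several of these genes had their highest or lowest level at ZT12 or ZT16. *Pck1* in GR LKO liver had means of 1411 ± 413, 5855 ± 466, 611 ± 190.3 and 586 ± 95.0 CPM (SD, n = 3) at ZT8, ZT12, ZT16 and ZT20, so that ZT12 was the highest of the 6 time points. *Hsp90aa1* had means of 57.7 ± 3.51, 121 ± 23.0, 761 ± 50.6 and 217 ± 30.1 CPM at the same times, with its highest mean at ZT16. *Nr1d1* peaked earlier, at 199 ± 34.2 CPM at ZT4, and was lowest at ZT16 (1.79 ± 0.661 CPM). *Arntl* was lowest at ZT8 (0.177 ± 0.307 CPM), before the interval began, and stood at 27.4 ± 6.22 CPM at ZT0.

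**Figure D3:**
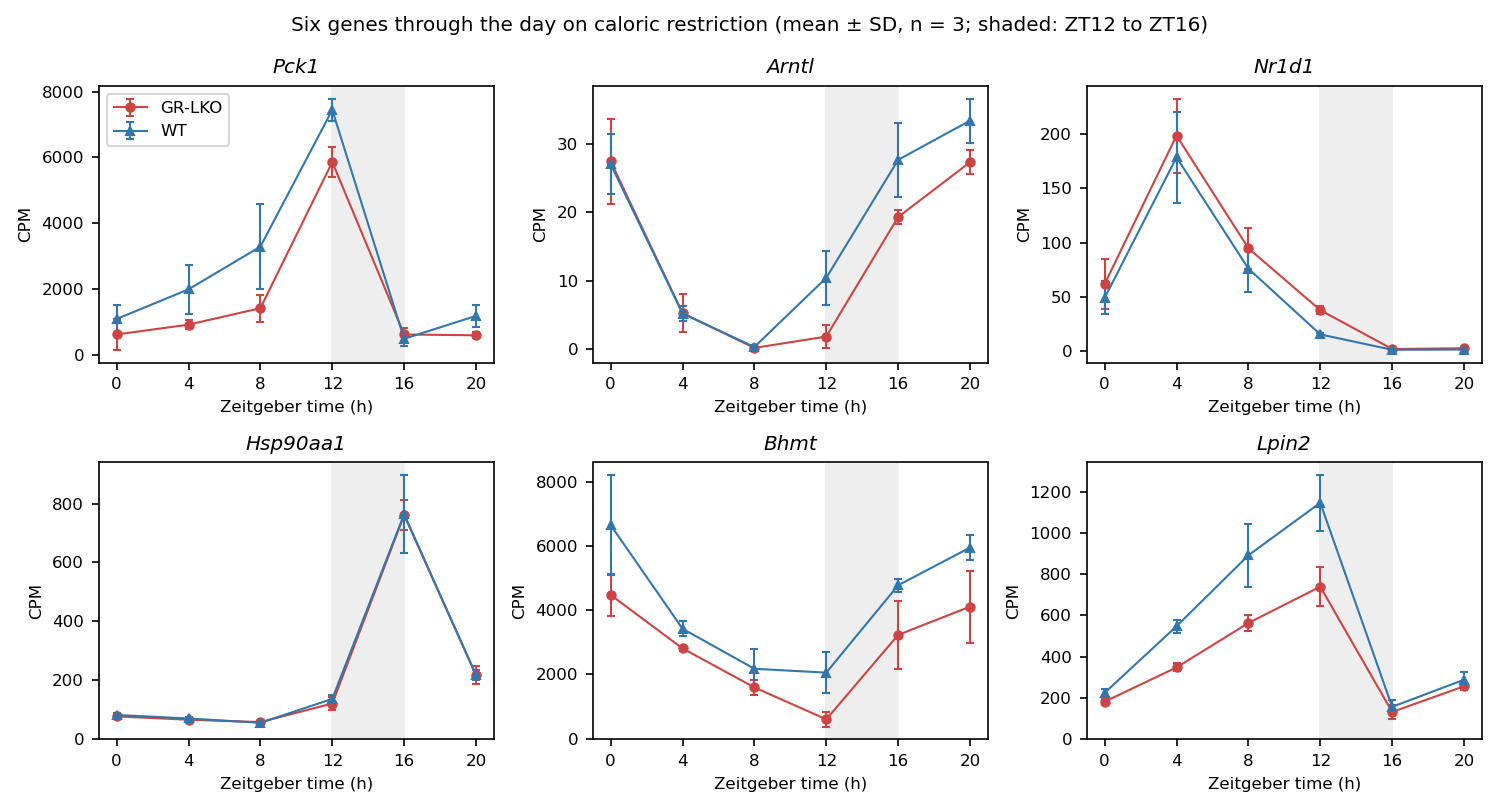
Mean CPM ± SD (n = 3, vertical axes) of 6 genes at 6 zeitgeber times (horizontal axes, hours) on caloric restriction, GR LKO as red circles and WT as blue triangles, with ZT12 to ZT16 shaded. In GR LKO liver *Pck1* was highest at ZT12 and *Hsp90aa1* at ZT16.

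The same interval was measured in WT liver to ask which changes differ with hepatocyte GR. WT replicate 3 at ZT12 also held exocrine pancreas RNA: all 10 pancreatic markers were present and summed to 1305 CPM, led by *Amy2a5*, against 0.697 CPM or less in every other library of these 4 groups. In WT, 4705 of 11768 genes changed (40%), of which 2471 rose (21%) and 2234 fell (19%), and 3584 were called without that library. All 8 Kupffer and myeloid markers rose in WT, from 57.3, 95.2 and 69.3 CPM to 137, 178 and 172 CPM summed, while 0 of 8 were called in GR LKO, and their part in differences between the genotypes was not tested. In the interaction of genotype and time edgeR called 0 of the 8, DESeq2 5, and 7 had an unadjusted edgeR p under 0.05. Of the 7 hepatocyte markers 5 fell in WT, from 171273, 177023 and 178420 CPM to 135163, 141473 and 133403 CPM summed and mostly *Alb*, against 3 in GR LKO, and the interaction was called for 2 of 7. Their part was likewise not tested. Of 11583 genes tested in both genotypes, 2941 were called in both, which is 66.1% of the 4449 GR LKO calls and 63.1% of the 4663 WT calls. Of these, 2898 went the same way and 43 the opposite way.

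The genotype by time interaction, tested in 1 fit over the 4 groups, called 388 of 12312 genes (3.15%), with 187 changes more positive and 201 more negative in GR LKO. The count was 832 with DESeq2 and 729 in the edgeR fit over all groups. With a block on replicate number, which was not taken as a pairing, it was 258. It was 261 without WT replicate 3 at ZT12, 210 without WT replicate 1 at ZT16, 229 without GR LKO replicate 3 at ZT12 and 233 without GR LKO replicate 3 at ZT16. By the fitted changes alone, whether or not each was called in a genotype, 189 of the 388 had opposite signs, 121 had the same sign and the larger size in WT, 74 the same sign and the larger size in GR LKO, and 4 were not tested in both. Of the 388, 142 were called in both genotypes. Single-gene interactions come from this 1 fit and were not examined under the alternatives. *Angptl4* in WT stood at 256, 284 and 249 CPM at ZT12 and 25.3, 32.8 and 24.6 CPM at ZT16, and its fall there was larger than in GR LKO (interaction 2.31 ± 0.19, SE, edgeR adjusted p = 0.000236). *Tsc22d3* stood at 212, 246 and 263 CPM at ZT12 and 172, 167 and 148 CPM at ZT16 in WT, where it fell while it rose in GR LKO (interaction 1.56 ± 0.16, SE, edgeR adjusted p = 0.000862). *Fkbp5* stood at 333, 321 and 392 CPM at ZT12 and 75.8, 86.8 and 63.2 CPM at ZT16 in WT (interaction 1.18 ± 0.23, SE, edgeR adjusted p = 0.0203). *Fasn* stood at 59.1, 40.6 and 73.2 CPM at ZT12 and 791, 766 and 454 CPM at ZT16 in WT, a larger rise than in GR LKO (interaction -2.18 ± 0.37, SE, edgeR adjusted p = 0.0111), and the interactions of *Srebf1* and *Mid1ip1* were -1.78 ± 0.31 and -2.29 ± 0.30 (SE). The interaction was called for 6 of 24 classical GR targets, all more positive in GR LKO, for 7 of 28 genes of the cholesterol list, all more negative, and for 6 of 23 of de novo lipogenesis, 1 more positive and 5 more negative. *Plin5* (128, 94.5 and 136 CPM at ZT12 and 118, 97.0 and 98.9 CPM at ZT16 in WT) and *Ppp1r3b* (293, 268 and 319 CPM at ZT12 and 413, 457 and 387 CPM at ZT16 in WT) had the more positive change in GR LKO, whose ZT12 libraries lay below all WT ZT12 libraries (interactions 2.16 ± 0.30 and 1.52 ± 0.19, SE).

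*Il1r1*, an interleukin 1 receptor, stood at 22.3, 13.2 and 18.1 CPM at ZT12 and 17.4, 10.3 and 13.1 CPM at ZT16 in GR LKO, where it was not called (edgeR adjusted p = 0.260, 0.0362 to 0.614 over the alternatives), and at 190.4, 162 and 186 CPM at ZT12 and 20.8, 23.7 and 24.0 CPM at ZT16 in WT (interaction 2.58 ± 0.29, SE, edgeR adjusted p = 0.00124). With a block on replicate number its fall in GR LKO passed (log2 change -0.38, edgeR adjusted p = 0.0362). *Bud13* stood at 15.6, 18.7 and 17.9 CPM at ZT12 and 5.32, 6.13 and 5.51 CPM at ZT16 in GR LKO and 58.8, 77.5 and 53.3 CPM at ZT12 and 4.19, 3.69 and 3.29 CPM at ZT16 in WT, with overlap in neither (interaction 2.45 ± 0.22, SE, edgeR adjusted p = 0.000346). *Pfkfb3* and *Tmc7* were not called in GR LKO and had interactions of 2.49 ± 0.47 and 2.47 ± 0.31 (SE). *Aqp8*, a water channel, rose in both genotypes, from a lower level in WT (interaction -2.04 ± 0.31, SE, edgeR adjusted p = 0.00612). *Clock* and *Cry1* were not called in WT, at 41.9, 22.7 and 25.8 CPM at ZT12 and 26.8, 33.1 and 41.6 CPM at ZT16 for *Clock*, and their interactions were 1.91 ± 0.31 and 1.14 ± 0.15 (SE). *Bcat2* was listed at 3.44, 5.09 and 6.16 CPM at ZT12 and 0, 0 and 0 CPM at ZT16 in WT, the reverse of GR LKO.

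On the control diet, GR LKO liver had 1065 of 11753 genes called over the same 4 h (9.06%). That count was 1821 in the edgeR fit over all groups, 574 without replicate 1 at ZT12, and 468, 512 and 379 without replicates 1, 2 and 3 at ZT16. A fit with a block on replicate number, which was not taken as a pairing, called 16. The libraries of each diet were deposited in a separate table, so only changes, not levels, are compared between diets. The diet by time interaction called 1161 of 12357 genes (9.4%), and 24 of these were not tested on both diets. By the fitted changes alone, whether or not each was called on a diet, 741 had the same sign and the larger size on CR, 8 the same sign and the larger size on control diet, and 388 opposite signs. The interaction count was 1952 in the edgeR fit over all groups, 610 without CR replicate 3 at ZT12, 732 and 750 without CR replicates 2 and 3 at ZT16, and 713 and 670 without control diet replicates 1 and 2 at ZT16. With the block on replicate number it was 297. *Ppp1r3c* stood at 47.6, 24.1, 23.8 and 40.7 CPM at ZT12 and 54.6, 51.2 and 49.1 CPM at ZT16 on control diet and was not called there (interaction 2.17 ± 0.35, SE, edgeR adjusted p = 0.00539). *Plk3*, a stress-responsive kinase, stood at 149, 191 and 196 CPM at ZT12 and 17.0, 22.0 and 15.7 CPM at ZT16 on CR and 77.1, 115, 119 and 86.7 CPM at ZT12 and 97.9, 71.6 and 61.7 CPM at ZT16 on control diet, where the groups overlapped (interaction -2.92 ± 0.28, SE, edgeR adjusted p = 0.000430). *Serpina7*, thyroxine-binding globulin, stood at 41.5, 28.5 and 28.3 CPM at ZT12 and 149, 183 and 306 CPM at ZT16 on CR and 79.5, 68.9, 92.0 and 75.8 CPM at ZT12 and 93.2, 26.1 and 50 CPM at ZT16 on control diet, where the groups overlapped (interaction 3.19 ± 0.52, SE, edgeR adjusted p = 0.00542). *Pck1* stood at 3450.2, 1908, 2089 and 1660.3 CPM at ZT12 and 591, 999 and 489 CPM at ZT16 on control diet. Its fall was smaller there (interaction -1.54 ± 0.43, SE, edgeR adjusted p = 0.0433). That call lies near the threshold, and interactions of single genes were not examined under the alternatives. *Nr1d1* also fell less on control diet (interaction -2.04 ± 0.39, SE). In ribosome biogenesis 16 of 61 genes were called in the interaction, all more positive on CR. Of 26 heat shock chaperones 1 was more positive on CR, 4 were more negative, among them *Dnajb1* (-1.39 ± 0.19, SE, edgeR adjusted p = 0.00242), and 21 were not called in the interaction, *Hsp90aa1* among them (0.45 ± 0.23, SE, edgeR adjusted p = 0.244).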

How the data were processed

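Liver RNA of single mice was sequenced from poly(A)-selected libraries. The authors quantified reads with Salmon and deposited the estimated counts of each gene without normalization (FastQC, MultiQC and DESeq2 are also named in the submitters' processing notes, as is the mm10 build). Of 27654 gene IDs, 27244 were matched to a symbol and the other 410 held 0.110% of the counts. In the 2 tables used every column was mapped to a sample by the name in the sample's description, and 3 tables with 12 samples were not used here.

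Estimated counts were rounded to whole numbers and read in R 4.3.3. Each comparison was fitted with edgeR 4.0.16 (quasi-likelihood F test, TMM, filterByExpr at a minimum count of 10) on its own libraries, without covariates, and Benjamini-Hochberg adjusted p-values under 0.05 were called. CPM were scaled by TMM over all libraries of a table. Interactions were fitted over 4 groups. Fold bounds used 3 counts per library. Steps were tested on simulated data. Of 21 pairs of libraries within a group none held the same values (chi-square over degrees of freedom at least 16.8, with a median of 28.9). Alternatives were DESeq2 1.42.0, RLE size factors, 2 other filters, a fit over all groups, a replicate block and leaving out each library.

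Named genes are *Nr3c1*, the 10 largest rises and 10 largest falls among calls with at least 5 CPM in 1 group (for the main comparison also without overlap between groups) in the main comparison and each interaction, and for each of 32 lists its anchor genes and up to 3 called members per direction. Further genes are named only as part of a count, and some genes that the rule takes are not reported here. The members, lists and the 10 cell type marker lists were chosen with earlier results of these data known. Promoters came from RefSeq (GRCm38.p6), which held one for 120 of the 156 genes examined.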

Additional observations from a re-analysis of the deposited data

Results flagged for a closer look

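In 43 of the genes examined the change from ZT12 to ZT16 on caloric restriction differed between genotypes by the interaction test (log2 GR LKO change minus WT change, n = 3 per group). Single-gene interactions, here and between diets, were not examined under the alternatives. It was more positive in GR LKO for *Clock* 1.91, *Cry1* 1.14, *Pfkfb1* 1.56, *Ppp1r3b* 1.52, *Ppp1r3c* 1.5, *Insig2* 1.41, *Angptl4* 2.31, *Plin5* 2.16, *Fkbp5* 1.18, *Tsc22d3* 1.56, *Cdkn1a* 2.41, *Foxo1* 0.77, *Trp53inp1* 1.21, *Ccng2* 1.14, *Por* 1.00, *Tsku* 1.83, *Bcat2* 18.83, *Mup17* 5.79, *Bud13* 2.45, *Cidec* 2.43, *Gm19680* 8.80, *Il1r1* 2.58, *Mup16* 3.44, *Mup18* 2.78, *Pfkfb3* 2.49, *Tmc7* 2.47, *Ctps* 1.8. It was more negative in GR LKO for *Dbp* -2.25, *Slc2a2* -0.51, *Acaca* -0.99, *Fasn* -2.18, *Srebf1* -1.78, *Angptl8* -1.69, *Inhba* -1.01, *Aqp8* -2.04, *Clstn3* -2.03, *H2-Q1* -1.96, *Klhdc7a* -2.41, *Mid1ip1* -2.29, *mt-Nd3* -2.02, *Prss8* -1.95, *Sept11* -2.0, *Plk3* -1.39.

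In 55 genes the GR LKO change differed between diets by the interaction test (log2 change on caloric restriction minus change on control diet). It was more positive on caloric restriction for *Ppp1r3c* 2.17, *Hsd3b7* 1.22, *Plin5* 1.05, *Bhmt* 2.67, *Atf5* 1.46, *Xbp1* 0.64, *Polr1b* 0.71, *Tsr1* 1.44, *Rrp12* 1.01, *Heatr1* 1.46, *Psmd14* 1.11, *Castor2* 2.02, *Tsku* 1.8, *Akap8l* 16.57, *Bcat2* 9.28, *Gfer* 11.38, *Mup17* 3.47, *Slc34a2* 5.51, *Mup18* 1.65, *Klhdc7a* 1.38, *Acot6* 2.91, *Ctps* 2.57, *Mup-ps12* 2.75, *Serpina7* 3.19. It was more negative on caloric restriction for *Nr3c1* -0.62, *Dbp* -2.64, *Nr1d1* -2.04, *Nr1d2* -1.70, *Pck1* -1.54, *Lpin2* -1.87, *Sds* -1.61, *Tat* -1.71, *Herpud1* -1.29, *Dnajb1* -1.39, *Rpl22* -0.65, *Ulk1* -0.70, *Depp1* -2.28, *Cux2* -2.47, *Tsc1* -0.52, *Trp53inp1* -1.06, *Por* -0.96, *Cyp2a5* -1.24, *Cyp1a2* -0.96, *Ddx46* -11.86, *Hook2* -10.10, *Rps2-ps10* -6.44, *Bud13* -1.16, *mt-Nd3* -2.26, *Sept11* -1.19, *Gm7666* -8.10, *Hspa1b* -2.73, *Med25* -5.61, *Pdgfrl* -4.44, *Plk3* -2.92, *Ppp1r12a* -8.81. Fitted values of genes listed at 0 in a group, such as *Akap8l*, *Gfer*, *Bcat2*, *Gm19680*, *Ddx46*, *Hook2* and *Gm7666*, depend on the prior count and are no bounds. *Mup17*, *Mup16*, *Mup18*, *Mup-ps12*, *Hspa1b*, *Cyp2a5*, *Rps2-ps10* and *Gm7666* share sequence with other genes. Levels of *Med25*, *Pdgfrl* and *Ppp1r12a* are not given here. The change of *Ppp1r12a* within caloric restriction was called under no alternative, so its interaction does not establish a fall there.

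One library stood apart from its group of 4: *Arntl* was listed at 0, 0, 0.638 and 0 CPM at ZT12 in GR LKO liver on control diet, so that the gap of the highest library to the next was the whole range (ratio 1). Chance flags about 1 in 20 groups of continuous values, a rate that does not carry over to this gene, since with 3 libraries at 0 any count in the other gives a ratio of 1.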

How the results depend on the processing

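With 3 or 4 libraries per group, counts of calls depend on single livers, and depth limits genes near 3 counts per library. The count of the main comparison ranged from 3303 (without replicate 3 at ZT12) to 3886 when each of 6 libraries was left out, and lay within 1.5 times of 4516 under every other alternative run (4290 with DESeq2, 5385 in a fit over all groups, 4191 with the replicate block). In WT it ranged from 3537 to 3992 (3718 with the replicate block). The genotype interaction gave 832 calls with DESeq2, 729 in the fit over all groups and 258 with the replicate block, and 210 to 357 with a library left out. The control diet comparison gave 1821 in the fit over all groups and 16 with the replicate block, and 379 to 980 with a library left out. The diet interaction gave 1952 in the fit over all groups, 297 with the replicate block, and 610 to 1006 with a library left out. The cause was not tested.

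Replicate numbers were not taken as a pairing. Correlations of deviations between same-numbered ZT12 and ZT16 libraries were not all over 0.1 in any comparison. Not every library correlated best with its own number. For replicates 1, 2 and 3 they were -0.00527, 0.0852 and -0.0102 in GR LKO on CR. In WT they were -0.0307, -0.103 and -0.0537, and in GR LKO on control diet 0.0139, 0.113 and -0.108. Whether same-numbered libraries share a batch was not tested. Of 153 genes of the text tested in the main comparison, 134 were called. Of these, 116 kept the call under every alternative and 18 lost it under at least 1. A further 6 uncalled genes gained a call under at least 1 alternative. Interactions of single genes were not examined this way. Uncalled genes that changed sign with 1 library left out, with their range of log2 changes, were *Cps1* (-0.020 to 0.29), *Egr1* (-0.96 to 0.12), *Fos* (-0.33 to 0.50, through -0.043), *Pfkfb3* (-0.19 to 0.41). With the replicate block *Npm1* lost its call (edgeR adjusted p = 0.0627), and *Cyp4a14* (0.0259), *Il1r1* (0.0362) and *Mup16* (0.00227) passed. Medians of 5 of 32 lists changed sign. No alternative moved the median of all genes by over 0.1.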

Other observations

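Of genes called in only 1 genotype, 1508 were called in GR LKO and 1722 in WT, and the interaction was called for 102 and 138 of them. It was also called for 142 of those called in both. The median absolute log2 change of genes called in both was 0.78 in GR LKO and 0.79 in WT. The WT levels of *Klhdc7a* were 2.45, 6.69 and 4.97 CPM at ZT12 and 39.9, 31.3 and 42.6 CPM at ZT16, beside 35.2, 38.1 and 30.4 CPM at ZT12 and 63.4, 56.3 and 37.6 CPM at ZT16 in GR LKO, where the ZT12 and ZT16 groups overlapped (edgeR adjusted p = 0.0360, 0.00605 to 0.118 over the alternatives). *Sept11* was not called in GR LKO, at 28.1, 29.3 and 24.9 CPM at ZT12 and 22.5, 25.7 and 26.9 CPM at ZT16, and stood at 5.68, 6.90 and 6.72 CPM at ZT12 and 21.0, 17.9 and 31.3 CPM at ZT16 in WT. *Acot6*, a thioesterase, stood at 0.808, 0.847 and 0.800 CPM at ZT12 and 6.24, 7.62 and 6.20 CPM at ZT16 in GR LKO and at 0.280, 0.627 and 0.395 CPM at ZT12 and 3.76, 3.19 and 7.22 CPM at ZT16 in WT. *Ctps*, CTP synthase, stood at 2.25, 1.75 and 2.09 CPM at ZT12 and 8.32, 16.6 and 11.5 CPM at ZT16 in GR LKO, with no overlap (log2 change 2.59 ± 0.28, SE, edgeR adjusted p = 0.000465).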
